A study of Mus musculus with 2 samples.

Results

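Lysosomal hydrolases and lysosomal membrane proteins were examined in microglia from mice lacking PARK7/DJ-1 (knockout, KO) and from wildtype (WT) littermates, 24 h after a single intraperitoneal injection of lipopolysaccharide (LPS), a bacterial cell wall component that activates innate immune cells, at 4 µg/g body weight. The list holds 36 genes and was drawn up by function: 12 hydrolases of glycans and sphingolipids, 5 activator and binding proteins, 4 proteases, thioesterase and lipase enzymes, 5 membrane glycoproteins including a tetraspanin, 4 transporters, channel and LAPTM proteins, and 6 parts of the vacuolar proton pump. Of the 36 genes, 33 had at least 20 unique molecular identifiers (UMIs, each standing for 1 captured transcript) over both libraries and were compared, among 9085 such genes of 19537 listed in all. Gla, which encodes alpha-galactosidase A, had 2 UMIs in KO LPS against 17 for WT LPS, Sgsh, a heparan sulfate sulfatase, had 1 and 12, and Atp6v0c, the proteolipid of the proton pump, had 0 and 7, so these 3 were too shallow to compare.

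CD11b+CD45int cells were sorted from brain and profiled by Drop-seq, a droplet method that tags the 3′ end of transcripts with a cell barcode and a UMI. Each genotype was represented by 1 library, made from the pooled cells of 1 female and 1 male mouse aged 3 to 4 months. KO LPS mice carried a gene-trap insertion in Park7 (the B6;129P2-Park7Gt(XE726)Byg/Mmucd line, backcrossed to C57BL/6NCrl), so that every cell of the animal carried it, and WT LPS mice were wildtype littermates. Both libraries came from LPS-treated mice, and no untreated library was used here.

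Lysosomes are the acidic compartments in which cells break down proteins, glycans and lipids taken up by endocytosis, phagocytosis or autophagy. Their soluble enzymes are tagged with mannose 6-phosphate in the Golgi and sorted to the lysosome, small activator proteins present lipids to the hydrolases, a proton pump acidifies the lumen, and heavily glycosylated membrane proteins line the inside of the membrane. In microglia, this machinery digests myelin, dying cells and protein aggregates, and loss of single members causes storage diseases with prominent neurodegeneration. Transcription factor EB (TFEB) and its relatives TFE3 and MITF bind the CLEAR element, an extended E-box, in the promoters of many of these genes.

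Barcodes with at least 500 UMIs and at least 100 genes were counted as cells, which left 320 cells with 381305 UMIs in KO LPS and 1427 cells with 1989011 UMIs in WT LPS. The median cell held 963.5 and 1065 UMIs, respectively, and no cell barcode was shared between the libraries. Park7 had 1 UMI in KO LPS against 323 for WT LPS, a ratio of levels (CPM, the UMIs of a gene scaled to a library of 1000000 UMIs) of 0.0162 (95% interval 0.000408 to 0.0906), in the direction of the genotype labels. The libraries stood apart in 3 ways that run alongside every value below. First, the 28 of 31 inflammatory genes with at least 20 UMIs were all lower in KO LPS, with a median log2 ratio of -3.49, and all 31 summed to 978.2 CPM in KO LPS against 12928 CPM for WT LPS, whereas the homeostatic microglial list had a median log2 ratio of 1.49. Of the shallower inflammatory genes, Il6 had 9 UMIs in KO LPS against 8 for WT LPS, a ratio of 5.87 (2.01 to 17.5). Second, cells that held Y-linked but no Xist transcripts were 3.75% of KO LPS cells (12 cells) and 13.7% of WT LPS cells (195 cells), although a male mouse is named for each library. The last is that the summed level of 67 markers of other cell types was 3050 CPM in KO LPS against 561 CPM for WT LPS, led by the choroid plexus list (2164 and 15.6 CPM), while the neutrophil list was at 0 and 64.4 CPM. The 12 microglia and macrophage markers summed to 28418 and 26400 CPM, with 6 lower and 6 higher in KO LPS, from Fcer1g at a ratio of 0.419 to P2ry12 at 9.46. The part that these differences play in the lysosomal values was not tested, and genotype, library and mice cannot be told apart. With 1 library per genotype there is no replicate error and no test, and every interval given here covers counting error only.

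The lysosomal list as a whole stood at nearly the same level in both libraries, while single members moved in opposite directions. The 36 genes summed to 11196 CPM in KO LPS against 10858 CPM for WT LPS, that is 1.12% and 1.09% of all UMIs in cells, a ratio of 1.03 (0.998 to 1.07). The median log2 ratio of the 33 compared members was 0.07, beside 0.03 over all 9085 genes. In number, 15 members were lower in KO LPS and 18 were higher, and 48.7% of all genes were lower. A difference of at least 2-fold was reached downward by 2 members, Cd63 and Galc, and upward by 2, Npc1 and Tpp1, where 15.3% of all genes were at least 2-fold lower and 13.5% at least 2-fold higher, so the share of members past 2-fold in each direction was below that of genes at large. Hexa, Gusb, Grn, Npc2, Ppt1, Lamp1, Npc1, Atp6v1a, Atp6v1b2 and Atp6ap2 overlap a coding gene on the opposite strand, and Glb1 one on its own strand; the strand setting of the counting is not given in the sources used here, so reads of the partner cannot be told apart in these genes. For 15 of the 33 members the counting interval of the ratio included 1, so no difference was detectable at this depth. The share of all genes with such an interval was not computed, so this count is not a result about the members.

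Each member was also set beside the 200 genes next to it in the ranking by level, since shallow genes scatter more. At the top of the ranking these neighbours are not close in level. They spanned 554 to 43110 CPM for both Laptm5 and Lgmn, and 533 to 4349 CPM for Grn. In these neighbourhoods the median percentile of the 33 members was 51, with 15 members below the median of their neighbours and 18 above it. Cd63 lay at percentile 3.0 and Galc at 5.25, both under the 10th percentile of genes of like level, Npc1 lay at 91, above the 90th, and the other 30 members lay within. Tpp1, at percentile 88, was just inside, and lay outside when neighbours were taken by level in WT LPS alone.

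**Figure D1:**
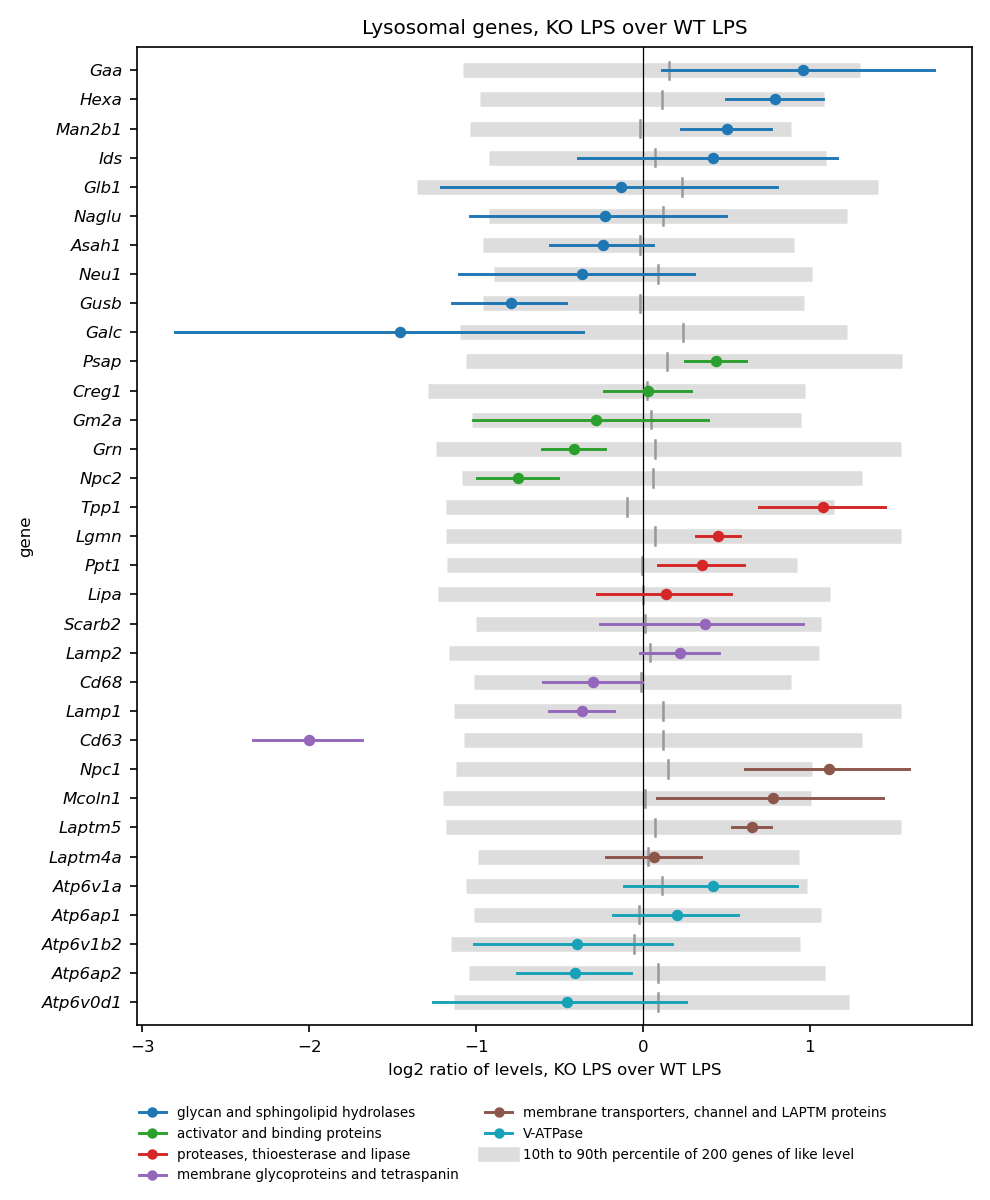
Log2 ratio of the level in KO LPS over WT LPS for the 33 compared lysosomal genes, grouped by role. Points are ratios of CPM, coloured bars are 95% counting intervals, and grey bars with a tick show the 10th to 90th percentile and the median of the 200 genes next in the ranking by level. Cd63 lies far to the left of its neighbours, Galc also lies outside, and Npc1 lies just beyond the right end.

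**Figure D2:**
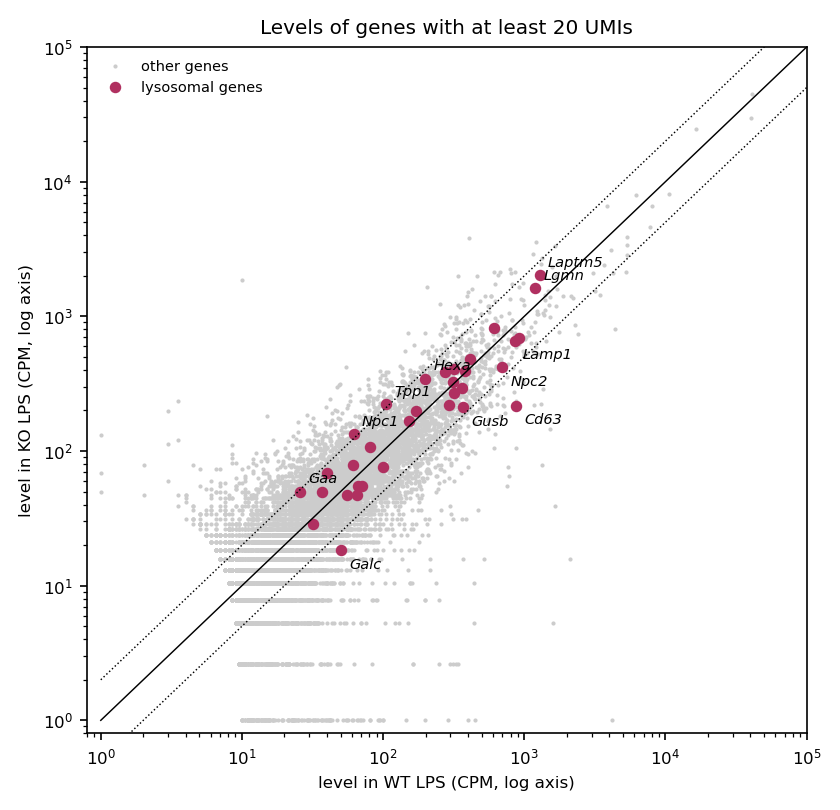
Level in KO LPS against level in WT LPS, in CPM on log axes, for every gene that reached 20 UMIs in sum (grey) and the 33 lysosomal genes (red); levels under 1 CPM are drawn at 1. The solid line marks equal levels and the dotted lines a 2-fold difference, and most lysosomal genes sit between the dotted lines, with Cd63 well below.

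Among the membrane glycoproteins, the departure was carried by Cd63, a tetraspanin of late endosomes, lysosomes and exosomes. Cd63 had 83 UMIs in KO LPS (218 CPM, 173 to 270) against 1735 for WT LPS (872 CPM, 832 to 914), so it was 4.01-fold lower in KO LPS (3.21 to 5.06). Once every cell was thinned to 500 UMIs, 28 of 320 KO LPS cells, or 8.75% (5.89 to 12.4), held a Cd63 UMI, compared with 445 of 1427, or 31.2%, in WT LPS. A droplet of 500 UMIs drawn from free RNA alone, taken as the pooled barcodes with at most 100 UMIs, would hold one in 7.74% of cases in KO LPS against 13.01% for WT LPS. The WT LPS share was thus above the free RNA level, and the KO LPS share was not distinguishable from it. A Cd63 pseudogene exists in the mouse annotation, and how reads that match both were assigned is not given in the sources used here.

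The other glycoproteins of the lysosomal membrane differed far less. Lamp1, a main LAMP protein of the limiting membrane, had 252 and 1697 UMIs, or 661 CPM (582 to 748) and 853 CPM (813 to 895), and was 1.29-fold lower in KO LPS (1.13 to 1.48). Its partner Lamp2, which also serves in chaperone-mediated autophagy, went the other way by a margin within counting error, at 480 and 412 CPM with a ratio of 1.17 (0.988 to 1.37). The macrophage sialomucin Cd68 stood at 294 and 361 CPM, with a ratio of 0.814 (0.661 to 0.994). Scarb2, the receptor that carries glucocerebrosidase to the lysosome, stood at 78.7 and 60.8 CPM. Together the 5 glycoproteins had a ratio of 0.676 (0.623 to 0.734), and without Cd63 the ratio of the whole list became 1.10.

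Transporters and LAPTM proteins had ratios above 1 in 4 of 4 cases (48.7% of all genes were lower), although the interval of Laptm4a included 1 and its ratio fell below 1 under the TMM scaling described below. Their sum, of which Laptm5 supplied 770 of 971 UMIs in KO LPS, was 2547 CPM in KO LPS against 1698 CPM for WT LPS, a ratio of 1.5 (1.395 to 1.61). Laptm5, a lysosomal protein of blood-lineage cells and the member with most UMIs, had 770 and 2558 UMIs, or 2019 CPM (1879 to 2167) and 1286 CPM (1237 to 1337), a ratio of 1.57 (1.45 to 1.70). Npc1, the membrane transporter that exports cholesterol from the lysosome, had 51 and 123 UMIs, or 134 CPM (99.6 to 176) and 61.8 CPM (51.4 to 73.8), a ratio of 2.16 (1.53 to 3.02). Mcoln1, the calcium channel TRPML1, had 26 and 79 UMIs, or 68.2 and 39.7 CPM, with a ratio of 1.72 (1.06 to 2.70). The fourth, Laptm4a, stood at 325 and 310 CPM. In thinned cells, 4.69% of KO LPS cells held an Npc1 UMI, where free RNA alone would give 7.50%, compared with 3.15% and 2.04% in WT LPS, so the KO LPS share did not exceed its free RNA level. Over cells thinned in this way the log2 ratio of Npc1 was 0.60, where all UMIs gave 1.12.

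Npc1 and Npc2 act in sequence on the same cholesterol, and their values diverged. Npc2, the soluble protein that hands cholesterol to NPC1, had 159 UMIs in KO LPS (417 CPM, 355 to 487) against 1393 for WT LPS (700.3 CPM, 664 to 738), and was 1.68-fold lower (1.42 to 1.99). Its percentile among genes of like level was 19. Other activator and binding proteins were split between the directions. Grn, progranulin, which reaches the lysosome and is cut into granulins there, had 262 and 1822 UMIs, or 687 CPM (606 to 776) and 916 CPM (874 to 959), 1.33-fold lower in KO LPS (1.17 to 1.52). Prosaposin, encoded by Psap and the source of the saposins that present sphingolipids to hydrolases, was higher, at 826 and 611 CPM with a ratio of 1.35 (1.19 to 1.53). Creg1 stood at 391 and 382 CPM, and Gm2a, the activator that lifts ganglioside GM2 for hexosaminidase A, at 55.1 and 66.9 CPM, neither of them distinguishable from a ratio of 1.

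Proteases, thioesterase and lipase enzymes had ratios above 1 in 4 of 4 cases (48.7% of all genes were lower), although the interval of Lipa included 1 and its ratio fell below 1 under TMM scaling. Their summed ratio was 1.37 (1.27 to 1.47), with 620 of 925 UMIs in KO LPS from Lgmn. Tpp1, tripeptidyl peptidase 1, whose loss causes a childhood ceroid lipofuscinosis, had 85 UMIs in KO LPS (223 CPM, 178 to 276) against 210 for WT LPS (106 CPM, 91.8 to 121), a ratio of 2.11 (1.62 to 2.73). Ppt1, the palmitoyl thioesterase of a related disease, stood at 409 and 320 CPM with a ratio of 1.28 (1.07 to 1.52). Lgmn, the asparaginyl endopeptidase legumain that matures cathepsins, had 620 and 2368 UMIs, or 1626 CPM (1501 to 1759) and 1191 CPM (1143 to 1240), a ratio of 1.37 (1.25 to 1.49). The acid lipase Lipa stood at 168 and 153 CPM, within counting error. Cells with a Tpp1 UMI after thinning were 9.38% in KO LPS against 4.42% for WT LPS, beside 9.80% and 5.54% from free RNA alone, so the share did not exceed the free RNA level in either library.

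Hydrolases of glycans and sphingolipids were split, with 6 of 10 compared members lower and 4 higher and a summed ratio of 1.02 (0.927 to 1.11). Hexa, the alpha subunit of hexosaminidase A, had 131 UMIs in KO LPS (344 CPM, 287 to 408) against 395 for WT LPS (198.6 CPM, 180 to 219), a ratio of 1.73 (1.41 to 2.11). Gaa, the acid alpha-glucosidase that digests lysosomal glycogen, had 19 and 51 UMIs, or 49.8 and 25.6 CPM, a ratio of 1.94 (1.08 to 3.35). Man2b1, lysosomal alpha-mannosidase, stood at 386 and 273 CPM with a ratio of 1.41 (1.17 to 1.70).

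On the lower side, Gusb, beta-glucuronidase, had 81 UMIs in KO LPS (212 CPM, 169 to 264) against 732 for WT LPS (368 CPM, 342 to 396), 1.73-fold lower (1.38 to 2.21). Galc, the galactosylceramidase that degrades the main lipid of myelin, had only 7 UMIs in KO LPS against 100 for WT LPS, or 18.4 CPM (7.38 to 37.8) and 50.3 CPM (40.9 to 61.2), a ratio of 0.365 (0.143 to 0.781) that rests on those 7 UMIs, of which 57.1% came from 3 cells. The remaining 5, Asah1, Naglu, Glb1, Neu1 and Ids, had ratios between 0.777 and 1.34 with intervals that included 1.

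Parts of the vacuolar proton pump were close to level, with 3 of 5 compared members lower and a summed ratio of 0.91 (0.792 to 1.04). Atp6v0d1, the subunit d of the membrane sector, had 18 and 129 UMIs, or 47.2 CPM (28.0 to 74.6) and 64.9 CPM (54.2 to 77.1), and its ratio of 0.728 (0.418 to 1.197) included 1. The accessory protein Atp6ap2, also known as the prorenin receptor, stood at 220.3 and 292 CPM with a ratio of 0.754 (0.593 to 0.949). The other 3, Atp6v1a, Atp6v1b2 and Atp6ap1, had intervals that included 1.

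The composition of the list therefore differed more than its total. Laptm5 and Lgmn alone supplied 32.6% of all lysosomal UMIs in KO LPS against 22.8% for WT LPS, while the 5 members with most UMIs, these 2 with Grn, Lamp1 and Cd63, supplied 46.5% and 47.1%. Without Cd63, Laptm5 and Lgmn the summed ratio was 0.977 (0.938 to 1.02). Per cell, at 500 UMIs each, a KO LPS cell held a median of 6 lysosomal UMIs (quartiles 4 and 7) and a WT LPS cell a median of 5 (quartiles 3 and 7), and 4 KO LPS cells and 29 WT LPS cells held none.

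Free RNA came close to the cell values of many members in KO LPS. The interval of the share of thinned cells with a UMI lay above the free RNA share for 8 of 33 members in KO LPS (13.7% of all genes) and for 26 of 33 in WT LPS (37.1% of all genes), where the larger number of cells also narrows the intervals. In KO LPS, Laptm5 was found in 61.3% of cells against 58.8% from free RNA, Lgmn in 52.5% against 51.2%, Hexa in 13.1% against 14.7% and Galc in 0.625% against 1.00%, none of them distinguishable from free RNA. Psap, Lamp1, Cd68, Laptm4a, Lipa, Neu1, Atp6ap2 and Gaa were the 8 above it, and Gm2a, at 1.88% against 4.43%, was below it. The free RNA share was taken without counting error of its own, although it rested on 18 UMIs for Gm2a, 5 for Neu1 and 2 for Gaa. The side of such shallow members is therefore uncertain.

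**Figure D3:**
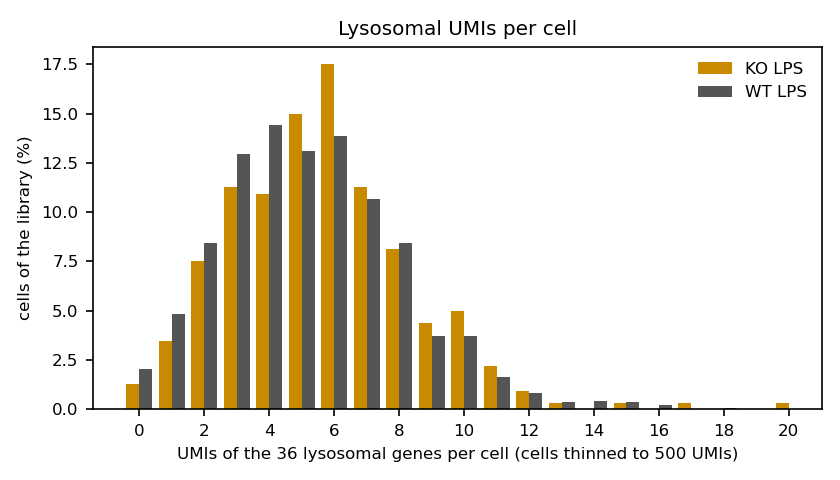
Number of UMIs of the 36 lysosomal genes per cell, after thinning every cell to 500 UMIs, as a share (%) of the 320 KO LPS cells and the 1427 WT LPS cells. The distributions overlap nearly throughout, with medians of 6 and 5 UMIs.

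Scaling by the total UMIs of each library leaves the median of all genes at a log2 ratio of 0.03, but scaling by trimmed mean of M-values (TMM) moved it to -0.19, a shift that all members share. Under TMM 19 members were lower, 3 (Cd63, Galc and Gusb) were at least 2-fold lower and 0 at least 2-fold higher, and the summed ratio was 0.885. The matching shares of all genes under TMM were not computed, so these counts cannot be set beside genes at large. Laptm4a, Creg1, Lipa and Atp6ap1 changed sides, whereas each of the 14 compared members given above with their UMIs kept its direction.

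The Xist-positive cells allowed the genotypes to be compared in cells with an Xist transcript, 209 in KO LPS against 645 for WT LPS, of which 9 and 80 also held Y-linked transcripts. There 31 of the 33 members lay on the same side as in all cells, the exceptions being Glb1 and Gm2a. These cells held 271791 of the 381305 UMIs in KO LPS and 1045735 of the 1989011 in WT LPS, so overlap alone keeps most sides the same. The share of all genes that kept their side was not computed. Cd63 stood at 217 CPM in KO LPS against 900 CPM for WT LPS, a ratio of 0.241 (0.182 to 0.314), and Npc1 at 154 and 58.3 CPM, a ratio of 2.65 (1.74 to 3.99). Tpp1 and Gaa were also over 2-fold higher in these cells, at ratios of 2.24 and 2.22. In the 99 KO LPS and 587 WT LPS cells with neither kind of transcript, Cd63 had a ratio of 0.216 (0.129 to 0.341) and Tpp1 of 1.74 (1.01 to 2.87), while Npc1, at 1.31 (0.563 to 2.71), and Gaa, at 1.34 (0.248 to 4.73), had intervals that included 1. Among the cells with Y-linked and without Xist transcripts, which number only 12 in KO LPS, Cd63 had 5 UMIs in KO LPS against 207 for WT LPS, a ratio of 0.514 (0.165 to 1.22), and Npc1 had 0 and 16, so no difference was detectable for either gene.

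Because inflammatory transcripts differed so strongly between the libraries, the lysosomal genes were also followed within WT LPS alone, between the cells with most and with fewest UMIs of the inflammatory list. After thinning, the upper group of 475 cells held 6 to 94 inflammatory UMIs per cell and the lower group of 475 cells 0 to 3. The median log2 ratio of the upper over the lower group was 0.16 for the 33 members and -0.01 for 7402 genes. Naglu, Mcoln1, Atp6v0d1 and Atp6v1b2 were at least 1.5-fold higher in the upper group, 4 of 33 members where 11.8% of all genes were, and Ids was at least 1.5-fold lower, 1 of 33 where 12.9% were. Of these 5, only the ratios of Atp6v1b2, at 1.56 (1.06 to 2.33), and Ids, at 0.530 (0.295 to 0.933), had intervals that did not include 1. Smaller differences had tighter intervals: Lamp1 was 1.38-fold higher in the upper group (1.22 to 1.57), Atp6ap2 1.35-fold (1.09 to 1.68), Cd63 1.32-fold (1.17 to 1.495), Grn 1.25-fold (1.11 to 1.41) and Npc2 1.18-fold (1.03 to 1.36), and Man2b1 had a ratio of 0.701 (0.562 to 0.874). Xist-positive cells made up 56.2% of the upper and 35.2% of the lower group, so mouse and inflammatory level cannot be told apart here, and with each WT LPS cell placed above or below the middle instead only Ids was past 1.5-fold.

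Set beside the lower WT LPS group, whose cells held few inflammatory UMIs, KO LPS cells held less Cd63, at 218 CPM compared with 743 CPM in the lower and 981 CPM in the upper group, 3.41-fold below the lower group (2.69 to 4.37). Galc and Gusb had ratios of KO LPS to the lower group of 0.349 (0.129 to 0.811) and 0.588 (0.449 to 0.764), and Npc2 had 0.672 (0.554 to 0.812). Tpp1 had a ratio of 2.40 (1.68 to 3.45), Npc1 of 2.12 (1.36 to 3.34), Mcoln1 of 2.29 (1.195 to 4.49) and Laptm5 of 1.63 (1.47 to 1.81). For Lamp1, KO LPS, at 661 CPM, was not distinguishable from the lower group, at 695 CPM (ratio 0.952, 0.809 to 1.12), as was also so for Gaa, Man2b1, Cd68 and Atp6ap2, while for Lamp1 the upper group stood at 961 CPM.

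**Figure D4:**
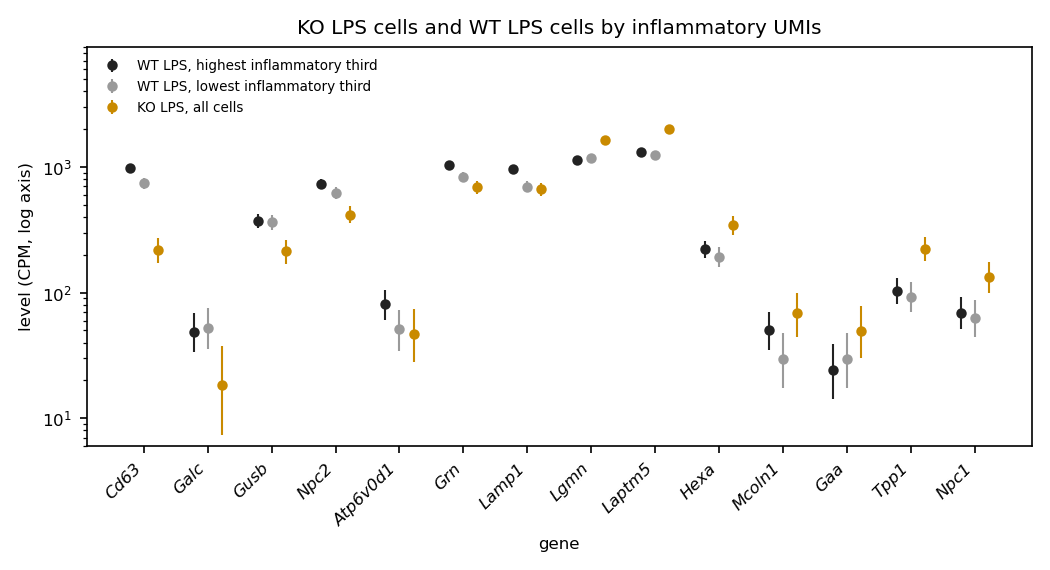
Level in CPM (log axis) of 14 lysosomal genes in all KO LPS cells and in the WT LPS cells with the most and the fewest inflammatory UMIs (475 cells each), with 95% counting intervals. For Cd63 the KO LPS point at 218 CPM lies below both WT LPS groups, for Npc1 and Tpp1 it lies above both, and for Lamp1 it lies at the level of the lower group.

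Other lysosomal genes, 106 on 5 further lists of which 93 were deep enough, had a median log2 ratio of 0.22. Of the cathepsins, the main lysosomal proteases, 7 of 10 were lower in KO LPS (48.7% of all genes), 3 of them at least 2-fold (15.3% of all genes), and 1 was at least 2-fold higher (13.5%). Ctsc was lowest at 288 CPM in KO LPS against 1360 CPM for WT LPS, while Ctsd, the aspartic protease, was highest at 3546 and 1220 CPM, a ratio of 2.91 (2.72 to 3.11). Of 26 further hydrolases and transport receptors 10 were lower, 2 were at least 2-fold lower and 3 at least 2-fold higher, from Hgsnat at a log2 ratio of -1.49 to Idua at 1.36, and of 26 further membrane proteins 7 were lower, 1 at least 2-fold, and 5 were at least 2-fold higher, from Clcn7 at -1.44 to Tmem106b at 1.39 among those with at least 50 UMIs (the shallower Tpcn1, with 21 and 18 UMIs, stood at 2.60). The 12 further proton pump subunits had a median of 0.06, between Atp6v0e at -1.21 and Atp6v1c1 at 0.55. Of 19 TFEB and mTORC1 regulators, 6 were at least 2-fold higher and 1 at least 2-fold lower (13.5% and 15.3% of all genes), from Lamtor3 at -1.25 to Flcn at 1.80.

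The promoters were read for the CLEAR element because TFEB binds it in many genes of this class. RefSeq windows from 250 bases before to 50 bases after a transcript start (GRCm38.p6) were matched for 33 of the 36 members. No window was matched for Asah1, Npc1 and Atp6v1b2. The 33 include Gla, Sgsh and Atp6v0c, which had fewer than 20 UMIs, unlike the 6816 genes set beside them here. On either strand, the E-box CACGTG was present in 10 of the 33 (30.3%), compared with 12.7% of 6816 genes with at least 20 UMIs and a window and 7.15% of all 32851 windows. The longer CLEAR core TCACGTGA, which contains the E-box, was present in 4 members, Gla, Mcoln1, Atp6v0d1 and Atp6v1a (12.1%), compared with 2.60% of those genes. Members with an E-box were found on both sides of the comparison, 4 of the 17 higher and 4 of the 13 lower members with a window, the other 2 being Gla and Sgsh. Shown are the 150 bases upstream of the start for members with the highest or lowest ratios that hold the element, with the E-box or CLEAR core in capitals. Lamp1 was added after its windows were read, for its repeated E-boxes.
Mcoln1, chr8:3500369-3500518, plus strand: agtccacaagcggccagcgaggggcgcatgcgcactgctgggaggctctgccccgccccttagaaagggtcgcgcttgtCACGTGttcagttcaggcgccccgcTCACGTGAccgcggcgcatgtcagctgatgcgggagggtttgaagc
Gaa, chr11:119267813-119267962, plus strand: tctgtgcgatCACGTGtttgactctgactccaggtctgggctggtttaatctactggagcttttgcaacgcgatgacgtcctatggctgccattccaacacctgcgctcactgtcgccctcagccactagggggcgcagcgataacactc
Lamp1, chr8:13159011-13159160, plus strand: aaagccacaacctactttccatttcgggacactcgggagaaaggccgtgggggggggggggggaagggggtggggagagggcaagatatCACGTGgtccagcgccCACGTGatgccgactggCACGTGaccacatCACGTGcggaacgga

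Mcoln1 (higher in KO LPS) carried E-boxes 71 and 45 bases before the start, the second within a CLEAR core. Gaa (higher) carried one at 140 bases. Lamp1 (lower) carried 4, at 61, 45, 28 and 15 bases. In Atp6v0d1 the CLEAR core crosses the start and is not shown. The windows of Cd63, Galc, Gusb, Npc2, Tpp1, Hexa and Laptm5 held no E-box, although the Cd63 window lies at a transcript start inside the gene, and a match or its absence in these windows is a description of the letters only.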

How the data were processed

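The deposited files held UMI counts per gene and cell barcode, 1 Drop-seq matrix per library, made by the authors from demultiplexed reads; the submitters' processing notes name bcl2fastq 2.0, STAR and the builds mm9 and mm10 without a role for each, and the gene annotation and strand setting are not given in the sources used here. CPM were computed from the counts summed over cells (at least 500 UMIs and 100 genes), over the 381305 and 1989011 UMIs of the 320 KO LPS and 1427 WT LPS cells. No doublet caller was run, and doublets were left in. Log2 ratios used a prior count of 0.5, and ratios carry exact conditional binomial 95% intervals, levels exact Poisson intervals and shares of cells exact Clopper-Pearson intervals, all for counting error only. As a rough floor, a count of 0 was taken to allow up to 3 counts, or 7.87 CPM in KO LPS against 1.51 CPM for WT LPS. This floor lies under the exact Poisson limit, which for Atp6v0c, with 0 UMIs in KO LPS, was 9.67 CPM.

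Members given in full were the 5 highest and 5 lowest log2 ratios with at least 50 UMIs, those outside the 10th to 90th percentile of 200 genes of like level, and the 5 with most UMIs. In other lysosomal lists the extremes with at least 50 UMIs were named, and other genes were chosen after their values were seen. The members and lists were chosen with earlier results of these data known. Python 3.11.15, numpy 2.4.6, scipy 1.17.1 and pandas 2.3.3 were used, and the ratio and its interval were tested on simulated data.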

Additional observations from a re-analysis of the deposited data

Results flagged for a closer look

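Barcodes not counted as cells, 9679 (303433 UMIs) for KO LPS and 8572 (1074784 UMIs) for WT LPS, were used above only as a measure of free RNA, through those with at most 100 UMIs. The summed level of the lysosomal genes in all of these barcodes was 9795 CPM in KO LPS against 6218 CPM for WT LPS, a ratio of 1.575 (1.51 to 1.65), where cells had 1.03. The median log2 ratio in these barcodes was 0.62 for the 33 members, beside 0.18 for all 9085 genes. Among the members described in full, the ratio in these barcodes was 4.048 for Hexa, 3.08 for Mcoln1, 2.531 for Lgmn, 2.378 for Npc1, 1.971 for Laptm5, 1.833 for Tpp1, 1.308 for Lamp1 and 1.185 for Grn, each with an interval above 1. Gusb was lower, at a ratio of 0.668 (0.484 to 0.907), and the intervals of Galc (0.656), Npc2 (0.980), Atp6v0d1 (1.67) and Gaa (2.58) included 1. Lamp1 and Grn were thus lower in KO LPS within cells and higher in the barcodes not counted as cells. These barcodes mix free RNA with shallow droplets. Those with at most 100 UMIs held 198723 of the 303433 UMIs in KO LPS and 315748 of the 1074784 in WT LPS. With every barcode of at least 100 genes taken as a cell (676 and 3618), Lamp1 and Grn stayed lower, at log2 ratios of -0.22 and -0.32. Cd63 was lower in these barcodes too, at 194 and 339 CPM, a ratio of 0.574 (0.428 to 0.758).

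The level in cells over that in these barcodes was 1.14 for the list in KO LPS against 1.75 for WT LPS, and for Cd63 1.12 and 2.58. The free RNA profile was also subtracted, at 18 UMIs per KO LPS cell and 75 per WT LPS cell, the medians of non-empty barcodes with at most 100 UMIs. The log2 ratio of Cd63 was then -2.04, that of Npc1 1.09 and that of Tpp1 1.09. These amounts are small beside the median cells of 963.5 and 1065 UMIs, so the ratios could move little. The part of free RNA in the cell values was not tested beyond these figures.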

How the results depend on the processing

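Of 182 recomputed values of the 14 members given in full, 164 moved by less than their interval and 3 changed sign. All 3 did so among the 12 KO LPS cells that held Y-linked but no Xist transcripts: Npc1 (log2 ratio -0.63) and Mcoln1 (-0.45), each with 0 UMIs there, and Lamp1 (0.06). Cd63 lay below 0 in 13 of 13 alternatives, from -2.21 under TMM scaling to -0.83 in those Y-marked cells, and Galc in 13 of 13, from -1.86 to -0.63. Of 75 recomputed values of the list, 63 stayed and 12 moved. The number of members at least 2-fold lower became 1 with cells of at least 1000 UMIs, 7 of 25 in the Y-marked cells and 1 with a prior count of 5, and the number at least 2-fold higher became 0 under TMM scaling, 0 under median of ratios scaling and 6 in the Y-marked cells. The shares of all genes past 2-fold were not computed for these settings, so these counts are not a result about the members. The summed ratio became 1.117 with cells of at least 100 genes and no UMI threshold, 1.07 with cells thinned to 500 UMIs, 0.8853 under TMM, 0.8927 under median of ratios and 1.091 in the Y-marked cells. With WT LPS cells divided at the middle, 1 member was past 1.5-fold in place of 5. Without cells holding at least 2 UMIs of other cell types (236 and 1212 left), Cd63 had a log2 ratio of -2.16, Npc1 of 1.21 and Tpp1 of 0.97. The cause of these shifts was not tested. Depth limits the members with fewest UMIs in KO LPS, such as Galc with 7 and Glb1 with 11. No paired analysis was possible because each genotype had 1 library and no test was made.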
